A study of Mus musculus with 17 samples.

Results

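Fabp1, Fabp2, Cyp3a11, Apoa1, Apoa4 and Apoc3 are genes that the lining of the small intestine, and for most of them also the liver, expresses strongly. They were followed through a culture of mouse pancreatic islets, whose endocrine cells make insulin and glucagon. The members were the probe sets whose single gene symbol in the platform's probe annotation is one of these 6 names, which gave 11 of the 45037 probe sets (6 of 18193 genes). The 6 genes had been chosen by their values at 0 h in these same data, where they were found high, so what they did at 0 h is given as a description, without a test.

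The islets came from C57BL/6 mice, each batch being a pool from 4 mice that was divided and harvested straight after isolation (0 h, 5 arrays) or after 24 h (6 arrays) or 48 h (6 arrays) in F12K medium that held 10% fetal bovine serum, with no other treatment. Expression was measured on Affymetrix Mouse Genome 430 2.0 arrays, 1 array per batch and time. The replicate number is the batch number, so 0 h, 24 h and 48 h arrays of the same number hold islets of the same pool, and for batch 5 a 0 h array was not analysed here. Levels are RMA values on a log2 scale, on which a step of 1 is a doubling. Their median over the table was 3.52, and since no detection call came with the values used here, a level near or under that median was not separated from background.

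Absorptive cells of the small intestine, the enterocytes, take up fatty acids from the gut, bind them inside the cell with fatty acid binding proteins, rebuild them into fat and export it on lipoprotein particles that carry apolipoproteins. The same cells hold cytochrome P450 enzymes that oxidise drugs and food compounds. Liver cells make most of the same proteins, but not the intestinal fatty acid binding protein or the sugar-splitting enzymes of the brush border, the dense fringe of microvilli on the enterocyte.

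Promoter sequences are shown for the members that share a motif, as background. The 6 genes were high together on 0 h replicate 3 only, and whether a shared motif bears on that was not tested. The 200 bases before the RefSeq start of transcription were searched on both strands for CAAAGTNCA, a form of the element bound by HNF4-type nuclear receptors of gut and liver. It was found in 3 of the 5 members with an entry in the RefSeq promoter table (GRCm38.p6) and in 315 of all 32851 promoters (0.959%). Apart from a TATA element, which was marked in the Fabp1 window and in none of the other 4, no other motif was searched. In the stretches below, written from 5′ to 3′ along the gene, capitals mark the match. The Fabp2 stretch is chr3:122894872-122895071 (plus strand), with the motif on the opposite strand 137 to 129 bases before the start. The Cyp3a11 stretch is chr5:145879855-145880054 (minus strand), with the motif on the gene's strand at 109 to 101 bases. The Apoa4 stretch is chr9:46240644-46240843 (plus strand), with the motif on the gene's strand at 182 to 174 bases. These letters were not in the Fabp1 and Apoa1 windows. A match is a run of letters, and binding was not measured.
Fabp2: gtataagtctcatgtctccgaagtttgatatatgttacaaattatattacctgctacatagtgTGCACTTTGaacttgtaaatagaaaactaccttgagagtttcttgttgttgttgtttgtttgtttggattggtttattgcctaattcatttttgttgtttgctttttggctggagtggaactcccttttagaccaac
Cyp3a11: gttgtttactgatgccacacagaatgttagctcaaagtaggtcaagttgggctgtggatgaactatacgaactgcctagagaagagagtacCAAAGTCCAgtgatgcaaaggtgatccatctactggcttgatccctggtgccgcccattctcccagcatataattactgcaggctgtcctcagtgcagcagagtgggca
Apoa4: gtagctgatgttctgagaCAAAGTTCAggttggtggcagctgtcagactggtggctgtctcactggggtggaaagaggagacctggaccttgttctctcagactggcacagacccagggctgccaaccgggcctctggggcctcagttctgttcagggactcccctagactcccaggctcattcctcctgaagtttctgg

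1 of the 5 arrays at 0 h, replicate 3, held the signal of all 6 genes. On that array each of the 11 probe sets was at least 1 (log2) higher than on any of the other 16 arrays, 10 of 11 were at least 2 higher and 9 of 11 at least 4 higher. Over the whole table that array stood at least 1 above every other in 119 of 45037 probe sets (percent called 0.264), and the members hold 11 of those 119. The members' gap to the next array ran from 1.10 to 7.06, with a median of 4.88. Since the members were chosen for their values at 0 h, these counts describe where the signal lies and support nothing further.

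**Figure D1:**
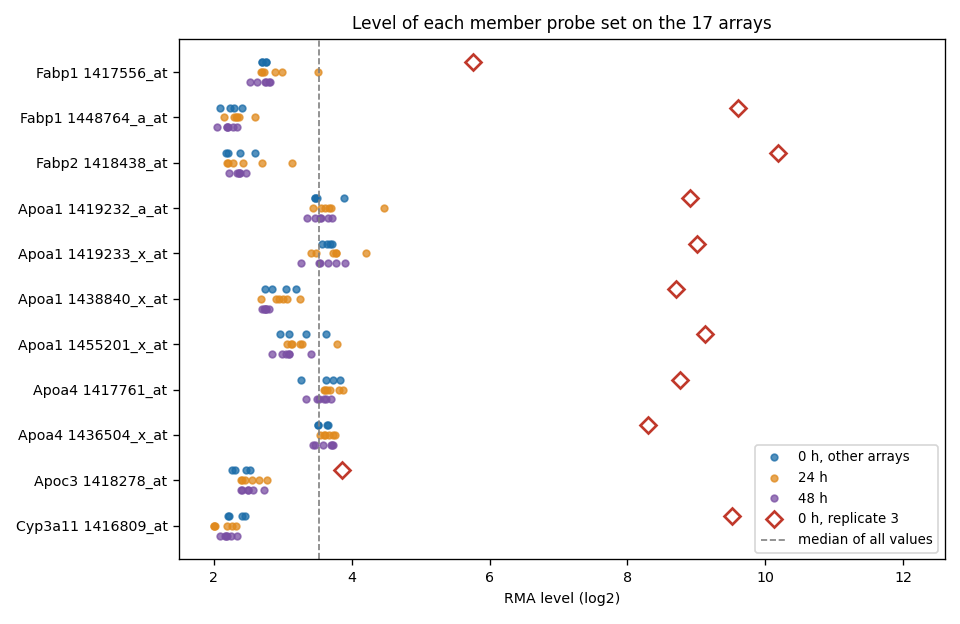
RMA level (log2, x axis) of the 11 member probe sets (rows) on the 17 arrays. Open red diamonds are 0 h replicate 3, blue dots the other 4 arrays at 0 h, orange dots the 6 at 24 h, purple dots the 6 at 48 h, and the dashed line the median of all values (3.52). In each row the diamond lies to the right of all 16 other arrays, by 1.10 (Apoc3) to 7.06 (Cyp3a11).

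Fabp2 makes the intestinal fatty acid binding protein, which is nearly restricted to enterocytes. Its probe set 1418438_at stood at 2.60, 2.18, 10.18, 2.20 and 2.39 on 0 h replicates 1, 2, 3, 4 and 6. It ranged from 2.19 to 3.13 at 24 h (median 2.35) and from 2.23 to 2.47 at 48 h (median 2.37). Every array but replicate 3 was under the median of the table, and replicate 3 was at least 132-fold above the next. The other 4 arrays at 0 h overlapped with both later times.

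Fabp1, the fatty acid binding protein of liver that enterocytes also make, was read by 2 probe sets. On 1448764_a_at the 0 h arrays had 2.29, 2.09, 9.61, 2.23 and 2.41 (replicates 1, 2, 3, 4 and 6), with 2.14 to 2.60 at 24 h and 2.05 to 2.34 at 48 h. On 1417556_at they had 2.70, 2.76, 5.76, 2.70 and 2.75, with 2.68 to 3.51 at 24 h and 2.52 to 2.82 at 48 h. Both named the same array, but its gap to the next array was 7.01 on the first and 2.25 on the second. No level is set against another between these probe sets, which differ in their probes.

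Apoa1, the main protein of high-density lipoprotein, which liver and small intestine secrete, was read by 4 probe sets. On 1419233_x_at, the one with the highest mean, the 0 h arrays had 3.64, 3.58, 9.00, 3.69 and 3.71 (replicates 1, 2, 3, 4 and 6), with 3.41 to 4.20 at 24 h and 3.26 to 3.90 at 48 h. On the other 3, 1419232_a_at, 1438840_x_at and 1455201_x_at, replicate 3 had 8.90, 8.70 and 9.13. The 4 probe sets put replicate 3 above the next array by 4.43 to 5.46.

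Apoa4, an apolipoprotein that mouse enterocytes secrete on chylomicrons after a fatty meal, gave 3.63, 3.27, 8.76, 3.73 and 3.83 on 0 h replicates 1, 2, 3, 4 and 6 (1417761_at). Its values were 3.60 to 3.88 at 24 h and 3.35 to 3.70 at 48 h. Its second probe set, 1436504_x_at, had 8.30 on replicate 3 and 3.44 to 3.76 elsewhere. Both were 4.55 or more above the next array on 0 h replicate 3.

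Apoc3, an inhibitor of lipoprotein lipase carried on triglyceride-rich particles, had the smallest gap of the members. Its probe set 1418278_at stood at 2.30, 2.27, 3.87, 2.47 and 2.53 on 0 h replicates 1, 2, 3, 4 and 6, at 2.40 to 2.77 at 24 h and at 2.40 to 2.73 at 48 h. On replicate 3 it was 1.10 above the next array and only just over the median of the table.

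Cyp3a11, a P450 enzyme of mouse liver and intestine that oxidises many drugs and steroids, was read by 1 probe set. Probe set 1416809_at gave 2.45, 2.22, 9.51, 2.41 and 2.20 on 0 h replicates 1, 2, 3, 4 and 6. The values were 2.01 to 2.33 at 24 h and 2.09 to 2.34 at 48 h, so that replicate 3 was at least 134-fold above the array next to it.

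Apart from replicate 3, the 0 h arrays were about as spread for the members as for other genes. The 4 other 0 h arrays spanned a median of 0.313 over the 11 probe sets (range 0.063 to 0.669), against 0.297 over all probe sets. The SD at 0 h ran from 0.668 to 3.51 with all 5 arrays and from 0.0346 to 0.295 with 4. For 6 of the 11 probe sets all 16 other arrays lay under the median of the table.

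A second, much lower feature appeared at 24 h. For 10 of 11 probe sets the array next to 0 h replicate 3 was 24 h replicate 5, as for Fabp2 (3.13, against 2.19 to 2.71 on the other 24 h arrays) and Apoa1 1419232_a_at (4.48, against 3.44 to 3.71). That array was the highest of the 6 at 24 h in 22.7% of all probe sets, had 29 probe sets at least 1 above every other array, and correlated less with the arrays of its own time (median r 0.988) than the others at 24 h did (0.992 to 0.994). Its islets came from another pool than those of 0 h replicate 3.

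The later arrays of batch 3, whose islets came from the same pool as 0 h replicate 3, had no level of a member near that of 0 h replicate 3. 24 h replicate 3 was the highest of the 24 h arrays in 0 of 11 probe sets (15.7% over all probe sets). 48 h replicate 3 was the highest at 48 h in 3 of 11, Fabp2, Apoa1 1438840_x_at and Apoc3 (15.8% over all probe sets), each under the median of the table. Fabp2 had 2.71 on 24 h replicate 3 and 2.47 on 48 h replicate 3, against 10.18 on 0 h replicate 3. In bulk samples fewer cells of a type and less RNA per cell cannot be told apart.

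Within batch 3 the 11 probe sets were all lower after culture, with differences from 0 h of -7.47 to -1.46 at 24 h (median -5.29) and of -7.71 to -1.14 at 48 h (median -5.48). In the other 4 batches with a 0 h array, the 44 differences ran from -0.57 to 0.34 at 24 h (median 0.02, 19 of 44 negative) and from -0.78 to 0.44 at 48 h (median -0.04, 27 of 44 negative). Differences beyond -0.78 were thus seen in 1 batch of 5.

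**Figure D2:**
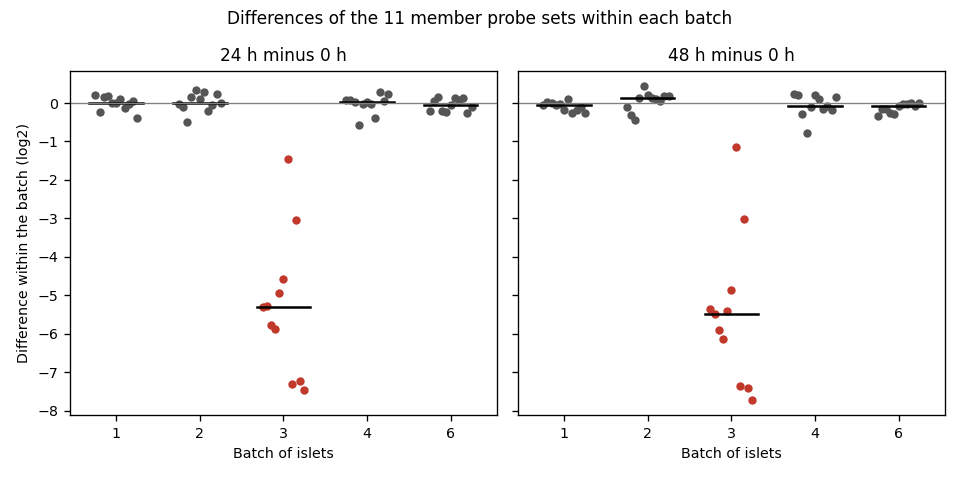
Difference within each batch (log2, y axis) of 24 h minus 0 h (left) and 48 h minus 0 h (right) for the 11 member probe sets, by batch (x axis). Each dot is 1 probe set and each bar a batch's median. Batch 3 (red) has medians of -5.29 and -5.48, while the dots of the other 4 batches lie between -0.78 and 0.44.

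Over all arrays the mean differences ran from -1.62 to -0.15 at 24 h against 0 h and from -1.56 to -0.17 at 48 h against 0 h. Without 0 h replicate 3 they ran from -0.18 to 0.19 (above 0 in 10 of 11) and from -0.21 to 0.12 (above 0 in 3 of 11). The whole-table limma fit called 8.58% of probe sets at 24 h and 8.47% at 48 h against 0 h. No p is given for the members there, since the 0 h values chose them.

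The design text describes a selection of genes for PCR by mean signal, with a difference above 4-fold from 0 h. Read as a ratio of mean linear signals under 0.25, the rule took 9 of the 11 member probe sets at 24 h and the same number at 48 h. Fabp1 1417556_at (0.479 at 24 h) and Apoc3 (0.819 at 24 h) were outside it. The ratios of the members ran from 0.0245 (Fabp2) to 0.819 at 24 h and from 0.0217 (Fabp2) to 0.805 at 48 h. Without 0 h replicate 3 the rule took 0 of 11 at either time, and the ratios were 0.883 to 1.16 at 24 h and 0.861 to 1.09 at 48 h. Over all probe sets the rule took 59 at 24 h, of which 28 were still taken without that array, and 4 others were then added. At 48 h it took 93, of which 66 were still taken without the array, and 3 others were added. The 9 member probe sets are among the 31 and 27 that were lost.

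**Figure D3:**
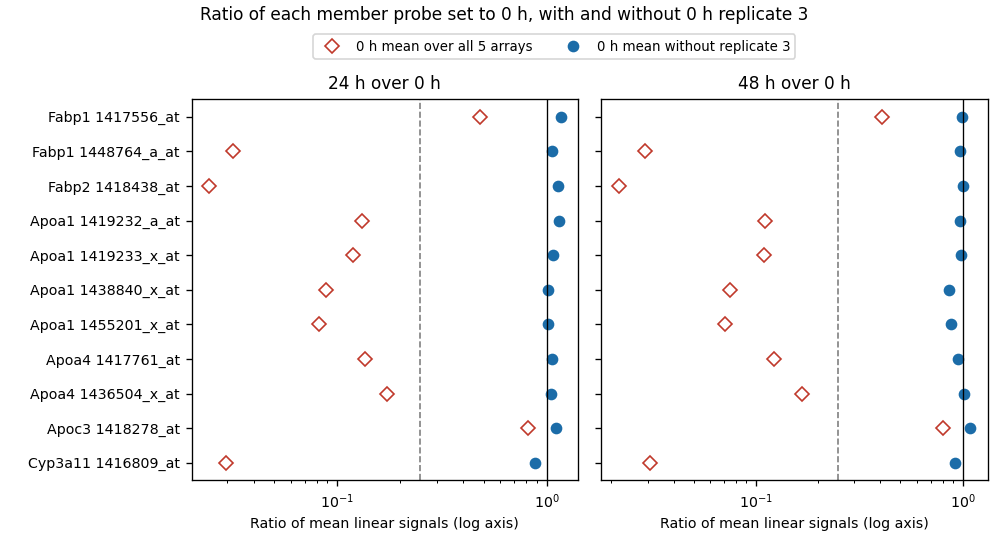
Ratio of the mean linear signal at 24 h (left) and 48 h (right) to that at 0 h (x axis, log scale) for each member probe set (rows). Open red diamonds use all 5 arrays at 0 h and blue dots leave out replicate 3. The dashed line is 0.25 and the solid line 1. The 9 diamonds left of the dashed line at each time have blue dots between 0.861 and 1.14.

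48 h against 24 h is the comparison that uses no 0 h array, and it was tested. 0 of the 11 member probe sets passed in limma (percent called 0.444 over all probe sets), and 0 had an unadjusted p under 0.05. The differences ran from -0.23 to 0.06, and the lowest adjusted p was 0.889. That fit takes its error from all 17 arrays, 0 h replicate 3 included, and its widest 95% intervals reached -2.14 (Fabp2) and 1.90 (Cyp3a11). Fitted without 0 h replicate 3 the intervals narrowed, reaching at most -0.49 (Apoa1 1419232_a_at) and 0.22 (Cyp3a11). Apoa1 1438840_x_at then had the lowest p of limma (unadjusted 0.0198, adjusted 0.312; difference -0.23, interval -0.41 to -0.04), and 0 of 11 passed.

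The relation of the members to each other also rested on 0 h replicate 3. Over all 17 arrays the 55 pairs of member probe sets had Pearson r between 0.911 and 0.996 (median 0.987). Over the 16 others r ran from -0.49 to 0.77, with a median of 0.43. These r describe arrays that share their normalization, and most of the 16 values lie near the table's median or under it.

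Other genes of the gut stood out on the same array. The lists of this account were drawn up with earlier results of these data known, and their counts leave out the 6 members. Of 38 measured enterocyte genes, each read by its lead probe set, 17 (44.7%) were at least 1 above every other array on 0 h replicate 3, against 82 of 18193 genes in the table (percent called 0.451). The list's median excess over the median of the other 0 h arrays was 0.88, against -0.01 for all genes. The highest were Alpi, intestinal alkaline phosphatase (8.11, against 2.76 to 2.84 on the other 0 h arrays), Mgam, a starch-digesting enzyme of the brush border (7.82, against 2.70 to 2.83), and Mep1b, a brush border protease (7.30, against 2.68 to 2.72). Krt20, a keratin of the gut lining, had 6.98 against 2.65 to 3.06, and Lct, lactase, had 7.09 against 2.91 to 3.18. Vil1, an actin-bundling protein of the brush border, was at 9.27 against 8.80 to 9.15, and Cdx2, the homeobox regulator of intestinal identity, was at 3.73 against 3.08 to 3.30. Vil1 was high on all arrays, and neither gene reached a gap of 1. Sis, sucrase-isomaltase, had no probe set with a single symbol.

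**Figure D4:**
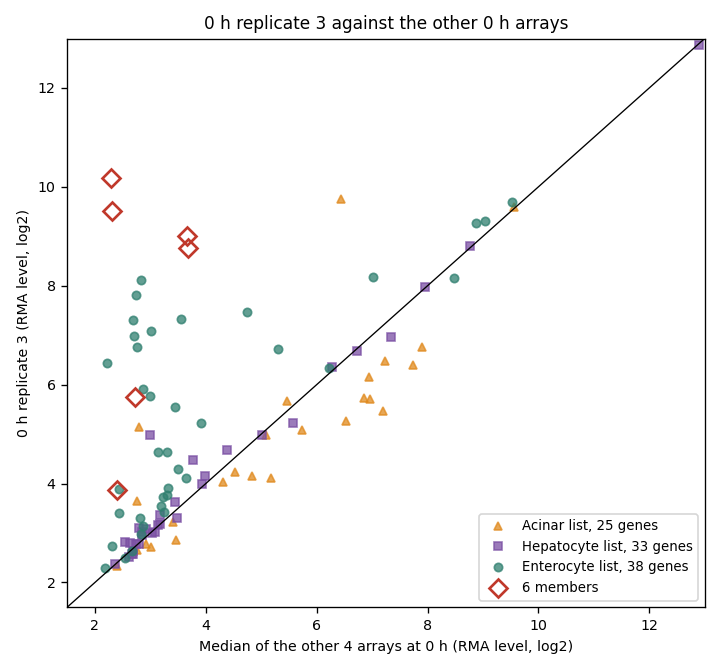
Level on 0 h replicate 3 (RMA, log2, y axis) against the median of the other 4 arrays at 0 h (x axis) for the 6 members' lead probe sets (open red diamonds) and for the enterocyte (green circles), hepatocyte (purple squares) and acinar (orange triangles) lists without members. Points on the line are equal on both. The members lie above the line with 17 of 38 enterocyte genes at least 1 above every other array, against 1 of 33 hepatocyte genes and 1 of 25 acinar genes.

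Genes with the members' own roles moved unevenly. Among other enzymes and transporters of xenobiotic metabolism, 8 of 19 were at least 1 above every other array, led by Cyp3a25 (6.44, against 2.17 to 2.30 on the other 0 h arrays) and Cyp3a13 (5.59, against 2.30 to 2.56), P450 enzymes of the same subfamily as Cyp3a11. Cyp3a16 (1.99, against 1.95 to 2.04) and Cyp3a44 (2.08, against 2.05 to 2.14), also of that subfamily, had no such gap. Among 23 genes of lipid uptake and export 3 were at least 1 above every other array, Apoc2, Mogat2 and Cideb. Apoc2, the activator of lipoprotein lipase, had 5.54 against 2.87 to 3.27 and was, by lead probe sets, the 1 of 13 other apolipoproteins with such a gap. Apob, the structural protein of chylomicrons, was split between its probe sets. Its lead probe set 1457554_at had 3.54 against 3.02 to 3.30, while 1455593_at, added after its values were seen, had 6.20 against 2.63 to 2.99 and stood 3.21 above the next array. Counted by any probe set of a gene, 2 of 13 other apolipoproteins, 4 of 23 lipid genes and 19 of 38 enterocyte genes had such a gap, against 94 of 18193 genes, and the other lists kept their counts. Of the 8 other fatty acid binding proteins 0 did, and their mean was 4.04, against 4.13 to 4.30 on the other 0 h arrays. The adipocyte binding protein Fabp4 had 5.57 against 5.81 to 6.52.

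Brush border genes gave 6 of 17, among them Alpi, Mgam, Mep1b and Lct, which the enterocyte list also counts. Mogat2, Cideb and Cyp3a25 were likewise counted in the enterocyte list too. Goblet, Paneth and crypt genes gave 4 of 17. In the latter list, Muc13, a membrane mucin, had 7.58 on 0 h replicate 3 and 3.51 to 3.80 on its 0 h counterparts, Clca1, a goblet cell protein, had 6.14 against 2.32 to 2.55, and Tff3, the goblet cell trefoil peptide, had 7.19 against 3.73 to 4.04. Gip, the hormone of duodenal K cells, was the 1 of 13 enteroendocrine genes with such a gap, at 5.85 against 2.78 to 3.09.

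Of 33 hepatocyte genes, 1 (3.03%, against 0.451% over all genes) was at least 1 above every other array. This was Cps1, a urea cycle enzyme of liver and small intestine, at 4.97 on 0 h replicate 3 and 2.75 to 3.24 on its 0 h counterparts. Alb, albumin, was at 4.47 against 3.57 to 4.05, and it was higher on 48 h replicate 3 (4.69). The list's mean on 0 h replicate 3 was 4.26, against 4.11 to 4.22 on the other 0 h arrays, while the enterocyte list had 5.48 against 3.85 to 3.97. How the signal came to be on that array was not tested.

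Cells of other tissues near the islets gave few or no genes with such a gap. The counts were 1 of 25 for acinar cells (Dnase1), 1 of 15 for ducts (Krt19), 1 of 15 for lymphocytes (Jchain), and 0 for 13 adipocyte and mesothelial genes, 6 red cell genes, 10 gut muscle genes, 21 regulators of gut and liver genes and 10 islet genes. In lists this short, 1 gene is 4% (acinar) or 6.67% (duct, lymphocyte), against 0.451% over all genes. Judged by list mean, 0 h replicate 3 held rank 1 of 17 for ducts, lymphocytes and gut muscle. The duct mean there was 6.45 (highest elsewhere 6.28). The lymphocyte mean was 3.35 (highest elsewhere 3.29) and that of gut muscle 3.50, both under the table's median. The array's rank was 2 for regulators and islet genes, 6 for acinar, 10 for red cell and 11 for adipocyte and mesothelial genes. The acinar list was highest on 0 h replicate 4 (mean 6.89), with 5.00 on replicate 3 and 4.82 to 5.52 on the rest at 0 h, so that the enzyme-secreting tissue of the pancreas and the members peaked on different arrays. The acinar proteases Prss2 and Cpb1 had 5.73 and 5.47 on replicate 3, against 5.98 to 8.92 and 6.22 to 10.07 on the other 0 h arrays. The islet list had 11.38 on replicate 3, against 11.17 to 11.50, and Ins2 (insulin) and Gcg (glucagon) had 13.81 and 12.78, against 13.74 to 13.75 and 12.37 to 13.03.

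**Figure D5:**
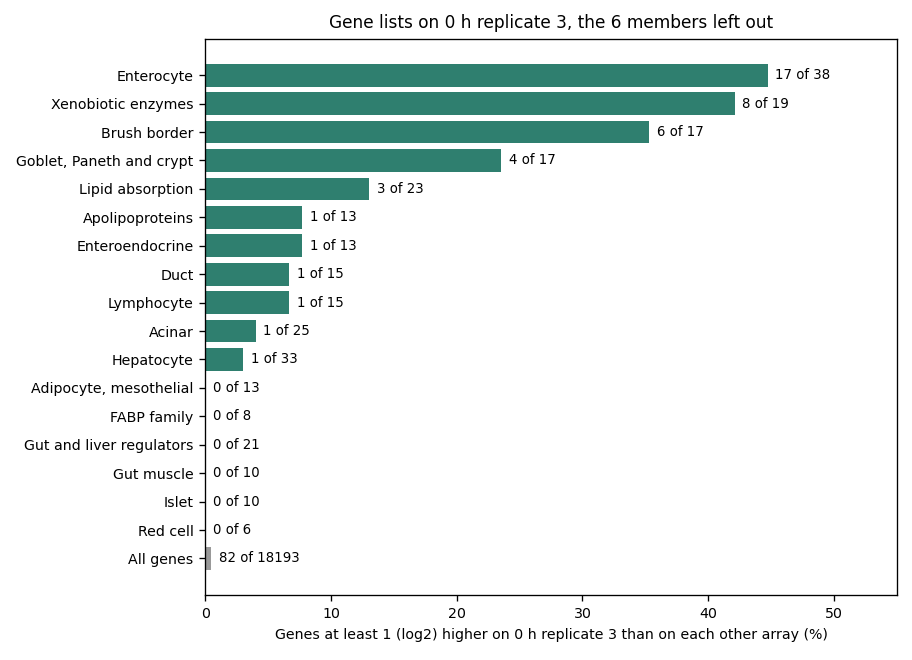
Percentage of each list's measured genes (bars, x axis from 0) that were at least 1 (log2) higher on 0 h replicate 3 than on each of the other 16 arrays, with the 6 members left out and the counts beside the bars. The grey bar is the whole table, members included. Enterocyte genes (17 of 38), xenobiotic enzymes (8 of 19) and brush border genes (6 of 17) lead, and 6 lists have none. These lists share genes.

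The 10 genes whose pattern over the 17 arrays was most like the mean of the members' lead probe sets, by Pearson r among 468 genes that spanned at least 2 (log2), were Krt20, Lct, Mep1b, Tm4sf5, 9130208D14Rik, Cyp3a25, Ms4a10, Alpi, Adh6a and 2010106E10Rik (r 0.990 to 0.995). 6 of the 10 are in the enterocyte list, which was drawn up with earlier results of these data known. Since r over the 17 arrays rests largely on 0 h replicate 3, that overlap describes this array and supports nothing further. By Spearman's rho 3 of these 10 were still among the first 10, and over the 12 arrays at 24 and 48 h also 3, where their r with the members ran from -0.02 to 0.81. 38 genes had r of 0.95 or more.

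On mouse chromosome 9 the RefSeq gene order runs Sik3, Apoa1, Apoc3, Apoa4, Apoa5, Zpr1. The 3 members there were the ones with a gap. Apoa5, the next apolipoprotein in the row, which liver makes and enterocytes scarcely do, was at 3.92 on 0 h replicate 3 and 3.70 to 3.84 on its 0 h counterparts. Sik3 on the other side had 9.37 against 9.16 to 9.37.

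Across the table, the genes with a gap of 1 or more on 0 h replicate 3 numbered 94 when any probe set counts (119 probe sets, 108 of them with a single symbol), of which 43 were in one of the lists and 51 in none. An example from no list, chosen after its values were seen, is Plac8 (8.75 on 0 h replicate 3, 5.40 above the next array). No test against 0 h is given for these probe sets, which were picked by a 0 h array. The median difference of the 119 at 24 h was -0.53 with that array and 0.00 without it. Of 3 other measures, 0 h replicate 3 differed clearly in its correlation with the other 0 h arrays, and little or not in the RNA signals. Its median r with the other 0 h arrays was 0.987, under the 0.991 to 0.992 of those arrays. The excess of its 3′ over its 5′ actin signal, which grows as RNA degrades, was 2.02 (2.03 to 2.25 on the other 0 h arrays). Its 18S ribosomal RNA signal was 11.99 (11.66 to 12.23).

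Against 0 h, the limma test called 990 rises and 1211 falls of 18193 genes at 24 h and 1174 rises and 959 falls at 48 h. The islet list had 6 falls of 10 genes at 24 h and the acinar list 9 falls of 25 at 48 h, while 4 of 15 duct genes rose at 24 h. Of 38 enterocyte genes 0 rose and 2 fell at 24 h (Vil1, -0.57, adjusted p = 0.00116; Slc2a5, the fructose transporter, -0.41, adjusted p = 0.00105), and 0 rose and 1 fell at 48 h (Slc2a5, -0.27, adjusted p = 0.0302, and 0.092 without 0 h replicate 3). Their median difference was -0.23 at 24 h, against -0.01 for all genes, and it was -0.02 without 0 h replicate 3. Slc2a5, like Vil1, was high on all arrays, with 9.30 on 0 h replicate 3 and 8.65 to 9.28 on the others. Of the 19 xenobiotic genes 0 rose and 1 fell at each time, Ces2e, a carboxylesterase (-1.30 at 24 h, adjusted p = 0.000504; -1.08 and 0.000554 without 0 h replicate 3). Gstm3, a glutathione transferase, had a difference of 0.25 at 24 h with all arrays and of 0.73 without 0 h replicate 3. No p is given for Gstm3, since its lead probe set is among the 119 picked by that array. Mttp, which loads fat onto lipoproteins, had 0.53 (adjusted p = 0.15) at 48 h with all arrays. Without 0 h replicate 3 the difference was 0.80 (adjusted p = 0.00137 in limma). Mttp had 6.73 on that array, against 5.12 to 5.78 on the other 0 h arrays. That call therefore rests on leaving out a high 0 h value, on an array picked by its high 0 h values. Of 17 goblet, Paneth and crypt genes 1 fell at 24 h, Lyz1, lysozyme (-1.21, adjusted p = 0.0253, and 0.0735 without that array).

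Some other genes of the members' pathways did pass between times. Of 23 genes of lipid uptake and export, 2 rose and 3 fell at 24 h and 4 rose and 2 fell at 48 h against 0 h (3 rose and 2 fell, and 6 rose and 2 fell, without 0 h replicate 3). With all arrays, 990 of all 18193 genes rose and 1211 fell at 24 h, and 1174 rose and 959 fell at 48 h. Mgll, the lipase that splits monoglycerides, fell by 2.00 at 24 h (adjusted p = 2.5e-08 in limma) and by 2.20 at 48 h (adjusted p = 6.82e-09). Apobec1, which edits the Apob message, rose by 1.12 at 24 h (adjusted p = 3.5e-06). Cd36, a fatty acid carrier of the cell surface, was higher at 48 h than at 24 h by 1.46 (adjusted p = 0.000727). Of 13 other apolipoproteins 0 rose and 1 fell at 24 h, Apoe, the ligand of lipoprotein receptors (-1.28, adjusted p = 0.00038). Of 8 other fatty acid binding proteins 1 rose at 24 h and 0 fell, Fabp4 (1.27, adjusted p = 3.83e-06), and it fell by 0.85 at 48 h against 24 h (adjusted p = 0.00492). Without 0 h replicate 3, 1 rose and 1 fell at 24 h. The fall was Fabp7 (-0.70, adjusted p = 0.00271 in limma, against 0.0595 with all arrays). Fabp7 had 2.24 on 0 h replicate 3 and 2.18 to 3.44 on the others, all under the table's median, so its level was not separated from background. Mgll, Apobec1, Cd36, Apoe and Fabp4 each kept direction and call without 0 h replicate 3.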

How the data were processed

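The deposited table holds log2 values, 1 per probe set and array, which the authors computed by RMA (per the submitters' processing notes, with no version). That method removes background and quantile-normalizes arrays together, so low levels are compressed. Of 45101 probe sets, 64 controls were left out. Genes were named through the platform annotation (34945 probe sets with 1 symbol, 932 with several, 9160 with none listed), and a gene with several was led by the one with the highest mean. Times were compared with limma 3.58.1 in R 4.3.3 (1 mean per time, eBayes, Benjamini-Hochberg over 45037 probe sets, adjusted p under 0.05), which was tested on simulated data. The number of arrays limits precision, and their depth is not defined. The members and lists were chosen with earlier results of these data known.

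Named genes were all members, up to 4 passing genes and the 5 largest 0 h excesses of each list, the 10 genes most like the members, and 8 check genes (Alb, Vil1, Cdx2, Sis, Ins2, Gcg, Prss2, Cpb1). Arrays of a batch share a pool, per the design text; over 16 pairs within a batch, the deviations had a median correlation of 0.00545 (-0.159 to 0.274). Alternatives were the batch as a block, complete batches, another variance prior, renormalization, centring, a filter, a floor, other probe set summaries, fewer arrays and leaving out each array. Counting genes by any probe set, a step of 1 or 2 (log2) over every other array, normalizations of it and the design text's rule without 0 h replicate 3 were partly added after seeing the data.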

Additional observations from a re-analysis of the deposited data

Results flagged for a closer look

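A value was listed here when the highest or lowest array of a time stood apart from the rest by Dixon's criterion, which chance alone meets in about 1 of 20 groups. Of 33 member values (11 probe sets at 3 times) 13 did, 11 of them at 0 h, each on replicate 3. The members were chosen by their 0 h values, so these 11 describe that choice and are no test. The levels there were 5.76 and 9.61 for Fabp1, 10.18 for Fabp2, 9.51 for Cyp3a11, 8.90, 9.00, 8.70 and 9.13 for Apoa1, 8.76 and 8.30 for Apoa4 and 3.87 for Apoc3, and the gap to the next array took 0.838 to 0.979 of the range at 0 h. The other 2 were Apoa1 1419232_a_at (4.48) and 1455201_x_at (3.79), both on 24 h replicate 5.

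Of 51 list means (17 lists without the members, at 3 times) 7 stood apart. On 0 h replicate 3 these were the means of the enterocyte (5.48), brush border (6.23), goblet, Paneth and crypt (5.00), lipid absorption (5.95), apolipoprotein (4.98) and xenobiotic (4.42) lists, and on 48 h replicate 5 it was that of the acinar list (4.74). Of 264 other list genes 56 stood apart at 0 h, 48 of them on replicate 3. The lists share genes and were drawn up with earlier results of these data known. These counts are therefore a description and no test.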

How the results depend on the processing

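The count of member probe sets that 0 h replicate 3 holds at least 1 above every other array stayed at 11 under quantile normalization again, median centring and leaving out each other array, was 10 with a floor at the table's median and with a step of 2, and was 5 where only the 5 member probe sets with a mean above the table's median were kept. The count over the table was 119 (119 to 124 leaving out arrays), 65 with a step of 2 and 27 above the median. The batch as a fixed block gave 3640, 3572 and 224 passing probe sets in the 3 comparisons, against 3862, 3815 and 200, and changed no member's call. Leaving out each array gave 3041 to 3869 at 24 h against 0 h, 2862 to 4221 at 48 h against 0 h and 102 to 263 at 48 h against 24 h (131 without 24 h replicate 2, 102 without 48 h replicate 2), and the floor gave 123 for the last. For members, 48 h against 24 h had no adjusted p under 0.05 in 283 alternatives (lowest 0.308). Its sign turned for Fabp2 with complete batches only (0.0226) and for Apoc3 with complete batches only (0.0283), median centring (0.00216) and without 24 h replicate 5 (0.0232), 24 h replicate 6 (0.000518) or 48 h replicate 1 (0.000807), where leaving out each array gave -0.0654 to 0.0232. With the floor, the difference was 0 for both Fabp1 probe sets, Fabp2, Cyp3a11, Apoa1 1438840_x_at and Apoc3. Member differences from 0 h moved by 1 SD or more in 100 of 566 alternatives, 22 of them without 0 h replicate 3. The SD used was that of the probe set over the arrays of the later time, not at 0 h. Low levels, near background, limit what the other arrays can show.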

Other observations

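Genes of goblet cells were uneven on 24 h replicate 3. Tff3 was 5.14 on 24 h replicate 3 and 3.70 to 3.96 elsewhere at 24 h, and Clca1 was 3.04, under the table's median, against 2.31 to 2.44. Muc2, the main gut mucin, and Agr2 were 3.01 and 2.61 there, each the lowest at 24 h, and the mean of the goblet, Paneth and crypt list was 3.89 there and also 3.89 on 24 h replicate 5 (3.67 to 3.80 on the other 24 h arrays). At 48 h the array of batch 3 had 3.67 for Tff3 (3.68 to 4.01 on the others) and 2.32 for Clca1 (2.22 to 2.83). Fabp2, the member with the highest level on 0 h replicate 3, was 2.71 on 24 h replicate 3, the highest there after replicate 5 (3.13). Zg16, a secretory granule protein of acinar and goblet cells, was 9.76 on 0 h replicate 3 and 9.32 on 0 h replicate 4, with 6.04 to 6.75 elsewhere at 0 h. Over the 108 probe sets of no member with a gap of 1 or more on 0 h replicate 3, the 24 h array of batch 3 was the highest of its time in 21 (15.7% over all probe sets) and 24 h replicate 5 in 35 (22.7% over all probe sets).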
